A study of Mus musculus with 8 samples.

Results

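The arrays labelled as Gfi1 knockout and wild type at 24 h were compared: 2 arrays of the 8 in the series, chosen by their titles. Both hold RNA of spleen cells from C57Bl/6 mice that were enriched for T cells with a magnetic pan-T cell kit. Both were cultured for 24 h with antibodies to CD3, the signalling part of the T cell receptor, and to CD28, its costimulatory partner, at 2 µg/ml. Each genotype carries its own number in the titles, the same one at 0, 4, 8 and 24 h. The 0 h arrays are untreated, and no array holds cells cultured for 24 h without the antibodies. The age and sex of the mice, how the Gfi1 allele was made and how many animals gave the cells are not given in the sources used here. With 1 array a side, no spread between samples can be measured. Each difference below is therefore a size with no p-value, and it describes these cultures.

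Gfi1 is a zinc finger protein that represses transcription with histone-modifying partners. It limits the myeloid programme in blood cell precursors, and in T cells it is induced by receptor stimulation and promotes proliferation. Resting T cells need about a day of stimulation to grow and enter S phase. By that time they have switched to aerobic glycolysis, made amino acids and ribosomes in quantity and, through E2F factors, switched on the genes that copy DNA.

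Gfi1 itself did not check the labels. Its probe set gave a signal of 9885 on the knockout-labelled array and 3966 on the wild-type-labelled one, 2.49-fold higher where the gene should be disrupted. The sources used here do not place its probes against the disrupted part of the gene, and for that reason each array goes by its label below, as knockout-labelled or wild-type-labelled. Pairs of signals below give the knockout-labelled array first, and a difference is its log2 signal minus that of the wild-type-labelled array. Signals under 141.88 were set to that floor, so a fold against a floor value is a lower bound, written "at least". The T cell markers Cd3d, Cd3e and Cd28 were well above the floor on both arrays. Cd3d, a chain of the receptor complex, gave 12672 against 14783, Cd3e 2144 against 1969 and Cd28 5612 against 6268. Another T cell marker, Trat1, was nearer the floor on the knockout-labelled array, at 168 against 629.7.

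Of 8457 genes tested, 776 (9.18%) had a knockout-labelled signal at least 2-fold above the wild-type-labelled one and 428 (5.06%) one at least 2-fold below it. Every list count below is to be read beside these shares. The median difference was 0.00, with quartiles of -0.36 and 0.40. Among the higher genes 226 had a wild-type-labelled signal at the floor, and among the lower genes 24 had a knockout-labelled one there. Differences of at least 4-fold were seen for 210 genes in the higher and 21 in the lower direction, and of at least 8-fold for 82 and 1. Over the 6953 genes above the floor on both arrays 550 (7.91%) were higher and 404 (5.81%) lower. By probe sets the counts were 1259 (8.36%) and 733 (4.87%) of 15062. The split depended on the scale: with each array divided by its median signal, which moved the median of all genes to -0.19, 579 genes were higher and 897 lower, so that 39.2% of the called genes were higher in place of 64.5%. The arrays' median signals were 269.5 and 222, signals above the floor covered 61.5% and 56.5% of probe sets, and 3' over 5' probe sets stood at 0.813 and 0.752 for Gapdh and at 1.13 and 1.11 for beta-actin. The 5' probe set for 18S ribosomal RNA gave 37640.2 and 4487, a difference in array controls whose part in the results was not tested.

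**Figure D1:**
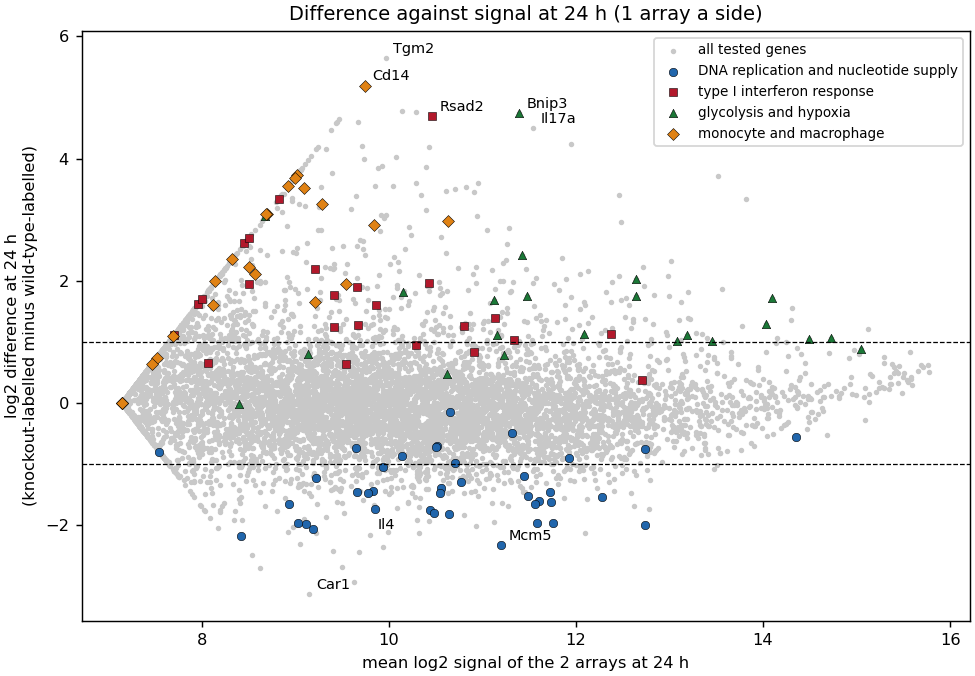
Each point is a gene tested at 24 h, by its mean log2 signal over the 2 arrays (x axis) and its log2 difference, knockout-labelled minus wild-type-labelled (y axis). Dashed lines mark 2-fold, and colours mark 4 gene lists. DNA replication genes lie below 0, while interferon response, glycolysis and hypoxia and monocyte genes lie mostly above it. The straight edges on the left are genes with 1 signal at the floor.

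Markers of myeloid cells differed between these arrays, as at the earlier times. Of 24 tested monocyte and macrophage markers, 18 had at least 2-fold more signal in the knockout-labelled array and 0 had less (median 2.16). Over all genes the shares were 9.18% and 5.06%. The summed signal of these markers was 30684 against 3473, and 15 of the 24 were at the floor on the wild-type-labelled array against 4 on the other. Cd14, the co-receptor for lipopolysaccharide, gave 5197 against 94.6 and was at least 36.6-fold higher. Csf1r, the receptor for the monocyte growth factor, gave 1889 against 105 and the phagocyte protein Mpeg1 1849 against 162. The complement genes C1qa, C1qb and C1qc and the mannose receptor Mrc1 were at the floor on both arrays. Of 9 granulocyte precursor markers 8 were higher (median 2.43), with a summed signal of 7025 against 742, and 8 were at the floor on the wild-type-labelled array. On the 0 h arrays the sums were 123384 and 8428. Mature neutrophil genes (11 tested) had a median of 0.43 with 5 higher, and 10 were at the floor on the wild-type-labelled array. Among the 5 were Mmp8 (653 against 100.5), S100a8 (610 against 134) and Il1r2, a decoy receptor for interleukin 1 (3606 against 195). Il1r2 moved apart from its list. In the knockout-labelled arrays it went from 188 at 0 h to 3606 at 24 h, while the list's summed signal went from 46506 to 6111. Eosinophil, basophil and mast cell genes were higher too, with 6 of 9 members past 2-fold and 6 at the floor on the wild-type-labelled array. Markers in these lists could be kept for testing through knockout-labelled arrays alone, so the counts lean to genes with signal there. Prg2 gave 1997 against 78.2, the mast cell carboxypeptidase Cpa3 1787 against 136 and the basophil protease Mcpt8 1542 against 144. In bulk RNA, more cells of a type and more RNA per cell cannot be told apart. The part of these cells in the results below was not tested.

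Genes of DNA replication and nucleotide supply were lower in the knockout-labelled array at 24 h. Of 39 tested, 28 were at least 2-fold lower and 0 at least 2-fold higher, and all 39 had a difference below 0 (median -1.47). Over all genes 5.06% were at least 2-fold lower and 45.5% below 0 by any amount. The helicase subunits Mcm5 (1049.8 against 5283), Mcm7 (3422 against 13608), Mcm4 (1548 against 6049) and Mcm3 (1758 against 6826), which unwind DNA ahead of the fork, differed by -2.33, -1.99, -1.97 and -1.96. Mcm2 (-1.62) and Mcm6 (-1.54) were lower as well, so that each of the 6 subunits of the ring was past 2-fold. Among the factors that load and start the helicase, Mcm10 gave 278 against 1099, Cdc6 507 against 1691, Orc1 276 against 868 and Gins1 287 against 1196. Of the polymerases, the leading strand enzyme Pole stood at -1.97, Pold1 at -1.48, the primase-linked Pola1 at -1.46 and Prim2 at -1.45. The nucleotide enzymes Tk1 (161 against 725), Dut (1796 against 5436) and Rrm1 (1702 against 4866) were lower, and the maintenance methylation factors Uhrf1 and Dnmt1 differed by -1.81 and -1.39. Smaller differences were seen for the sliding clamp Pcna (17283 against 25422, -0.56), Rpa3 (-0.49) and Rfc2 (-0.14).

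The replication list was not lower at the other times. Its median difference was 0.75, 1.18 and 0.67 at 0, 4 and 8 h, where the median of all genes was 0.00, 0.00 and -0.08. From 8 to 24 h the list's median change was 1.79 in the wild-type-labelled arrays and -0.35 in the knockout-labelled ones. Mcm5 went from 1566 to 5283 in the wild-type-labelled arrays and from 1801 to 1049.8 in the knockout-labelled ones. Cdc6 went from 157 to 1691 and from 726 to 507. Whether this difference between times is larger than the spread between samples could not be tested with 1 array each. Between the same times the summed signal of granulocyte precursor markers in the knockout-labelled arrays went from 107677 to 7025, and the sum over T cell identity genes from 34588 to 74594. In the wild-type-labelled arrays those sums went from 2492 to 742 and from 83997 to 85696. The part of this shift in cell markers was not tested.

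**Figure D2:**
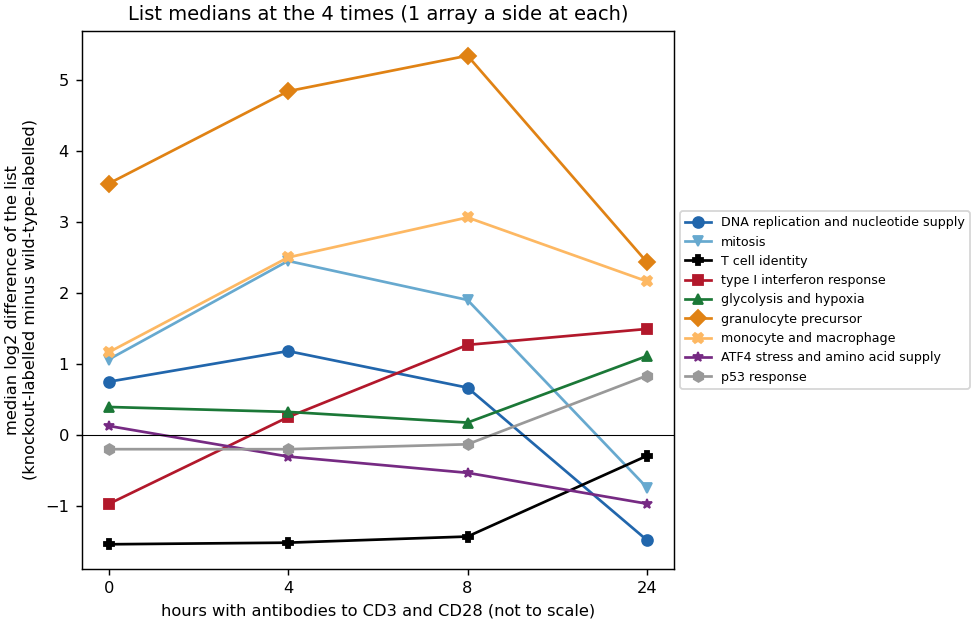
Median log2 difference of 9 gene lists (y axis, knockout-labelled minus wild-type-labelled) at 0, 4, 8 and 24 h (x axis, not to scale), 1 array a side at each time. DNA replication and mitosis medians lie above 0 at 0, 4 and 8 h and below it at 24 h (-1.47 and -0.73), and the T cell identity median lies nearest 0 at 24 h (-0.29).

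Promoters of the replication genes are shown because these genes were lower together and E2F factors are known to control many of them. The windows come from RefSeq on GRCm38.p6 and run from 250 bases before to 50 after the annotated start. The E2F letters searched on both strands were TTCCCGC and TTTGGCG. Mcm5, the subunit with the largest difference, has 1 match at -148 from the start (window chr8:75109259-75109558, plus strand), and Mcm3 has 2, the first at 19 (window chr1:20820263-20820562, minus strand). Matches are in capitals, and each sequence reads in the direction of the gene.
Mcm5: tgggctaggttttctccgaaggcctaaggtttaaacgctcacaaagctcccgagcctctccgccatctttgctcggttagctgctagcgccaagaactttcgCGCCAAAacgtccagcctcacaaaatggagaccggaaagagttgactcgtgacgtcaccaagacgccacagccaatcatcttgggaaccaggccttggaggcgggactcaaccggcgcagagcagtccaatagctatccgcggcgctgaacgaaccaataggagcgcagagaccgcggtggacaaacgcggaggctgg
Mcm3: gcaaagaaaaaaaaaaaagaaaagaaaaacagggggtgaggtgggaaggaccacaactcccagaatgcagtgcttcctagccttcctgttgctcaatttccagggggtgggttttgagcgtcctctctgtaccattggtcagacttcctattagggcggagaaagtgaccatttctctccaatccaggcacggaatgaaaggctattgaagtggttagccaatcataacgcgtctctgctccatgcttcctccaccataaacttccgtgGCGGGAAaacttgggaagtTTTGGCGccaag
Of 40 promoters of 33 tested replication genes 21 held such a match, against 1967 of 32851 promoters of the table (5.99%) and 938 of 8922 promoters of the tested genes (10.5%). Counted by genes, a match was found for 88 of 360 genes that were at least 2-fold lower at 24 h (24.4%), 53 of 612 that were higher (8.66%) and 881 of 6920 tested genes in the table (12.7%). None of 22 mitosis genes had these letters in the window, and that says only that the letters are not in it. The first share holds the replication genes themselves, and a match is not a bound site.

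Mitosis genes had a smaller difference of the same direction, with a median of -0.73 (-1.01 after division by array medians). At least 2-fold lower were 6 of 26, beside 5.06% of all genes, and 0 were higher. Cdk1, the kinase that drives entry into mitosis, gave 829 against 2189, the kinetochore protein Ndc80 204 against 511, Top2a 1449 against 3281 and the anaphase activator Cdc20 1250.5 against 2726. Other members were near 0: Aurka, Ccnb2 and Cenpe differed by -0.02, 0.01 and 0.02, while Prc1 stood at 0.28. From 8 to 24 h wild-type-labelled mitosis signals changed by a median of 0.95 and knockout-labelled ones by -1.80. The list had stood at 1.90 at 8 h.

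Regulators of the step from G1 to S phase that were past 2-fold were split by their role. Drivers of the step were lower: cyclin E2 (Ccne2) gave 433 against 1147, its transcriptional activator E2f1 163 against 351 and the kinase Cdk4 2657 against 5521. Inhibitors of these kinases were higher, with Cdkn1a (p21) at 14590.5 against 3113, Cdkn2d (p19) at 2564 against 919.7 and Cdkn1b (p27) at 1782 against 849.5. Cdkn2b was at least 2.13-fold higher, with 302 against 102. In all 4 of 17 members were higher and 3 lower, with a median of 0.20 (-0.08 after division by array medians). Genes of the p53 response, of which Cdkn1a is one, were higher in 8 of 18 cases and lower in 0 (median 0.84, beside -0.19, -0.19 and -0.13 at 0, 4 and 8 h). Perp, a membrane protein of apoptosis, gave 1620.1 against 278, the death factor Pmaip1 (Noxa) 2769 against 811 and the p53 ligase Mdm2 5200.1 against 1733. Other members differed little, such as Bbc3 (Puma) at 0.28, Aen at 0.01 and Sesn1 at -0.44. Of 10 BCL2 family genes, Pmaip1 was higher, Bid lower (735 against 1578) and the others within 2-fold, with Bcl2 at 0.32 and Mcl1 at 0.33.

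Many genes of cell growth were lower at 24 h as well, where 5.06% of all genes were at least 2-fold lower. In the list of ATF4 targets and amino acid supply, 10 of 21 were at least 2-fold lower and 3 higher (median -0.96, or -1.24 after division by array medians). This list's median had been 0.13, -0.30 and -0.53 at 0, 4 and 8 h. The whole pathway from glycolysis to serine was lower, with Phgdh at 3524 against 11288, Psat1 at 3846 against 12836 and Psph at 1376 against 4424. The folate enzymes that take its product onward, Shmt2 and Mthfd2, gave 2102 against 9149 and 2543 against 6082. Asparagine synthetase (Asns) gave 1953 against 4769 and the transporters Slc7a5 and Slc1a5, for large neutral amino acids and glutamine, 705 against 2685 and 2004 against 4599.7. The factor Atf4 itself differed by -0.14 and Ddit3 by -0.05. The 3 stress genes higher in the same list were Nupr1 (845 against 150.2), Ddit4 (9387 against 2999), a brake on the growth kinase mTORC1, and the cystine transporter Slc7a11 (427 against 205). Myc, the factor that drives growth of activated T cells, gave 2962 against 7789. Its difference had been -1.16 and -0.99 at 4 and 8 h. Of 25 genes in the list of Myc and ribosome biogenesis 9 were lower and 1, Mycn, higher (median -0.83, or -1.10 on that scale). Among them the RNA polymerase I subunit Polr1b stood at -1.27, Nolc1 at -1.25, Gnl3 at -1.24 and Nop56 at -1.10. The median of the Myc and ribosome biogenesis list had been 0.27, -0.71 and -0.60 at 0, 4 and 8 h, with 9 genes at least 2-fold lower at 4 h. Cholesterol synthesis genes had a median of -0.43, with 1 of 17, Dhcr7 (184 against 466), past 2-fold. At 8 h their median had been 1.18, with 12 of 17 at least 2-fold higher. Subunits of the proteasome (34 tested) had a median of -0.13 and none past 2-fold in either direction.

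Glycolysis and hypoxia genes were higher. Of 22 tested, 17 were at least 2-fold higher and 0 lower, beside 9.18% and 5.06% of all genes, and the median was 1.11 (0.84 after division by array medians). Bnip3, a mitochondrial protein induced by hypoxia through HIF1, gave 13923 against 522 and was 26.7-fold higher. On the earlier arrays Bnip3 had stood at 379 against 378, 339.8 against 225 and 401 against 219.7 at 0, 4 and 8 h. The HIF prolyl hydroxylase Egln3 gave 6360.4 against 1183, itself a HIF target, and the glucose transporters Slc2a1 and Slc2a3 12881 against 3171 and 5241 against 1556. The lactate exporter Slc16a3 was at least 8.32-fold higher (1179.8 against 135). The enzymes of glycolysis differed less and in the same direction, with Hk1 at 1.68, Tpi1 at 1.72, Pkm at 1.30, Hk2 at 1.12, Pgk1 at 1.07, Aldoa at 1.04 and Ldha at 0.88. Pfkm, the muscle isoform of phosphofructokinase, was the member not above 0 (-0.01). From 8 to 24 h knockout-labelled signals of the list changed by a median of 1.56 and wild-type-labelled ones by 0.61. Its median difference had been 0.40, 0.33 and 0.18 at 0, 4 and 8 h.

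**Figure D3:**
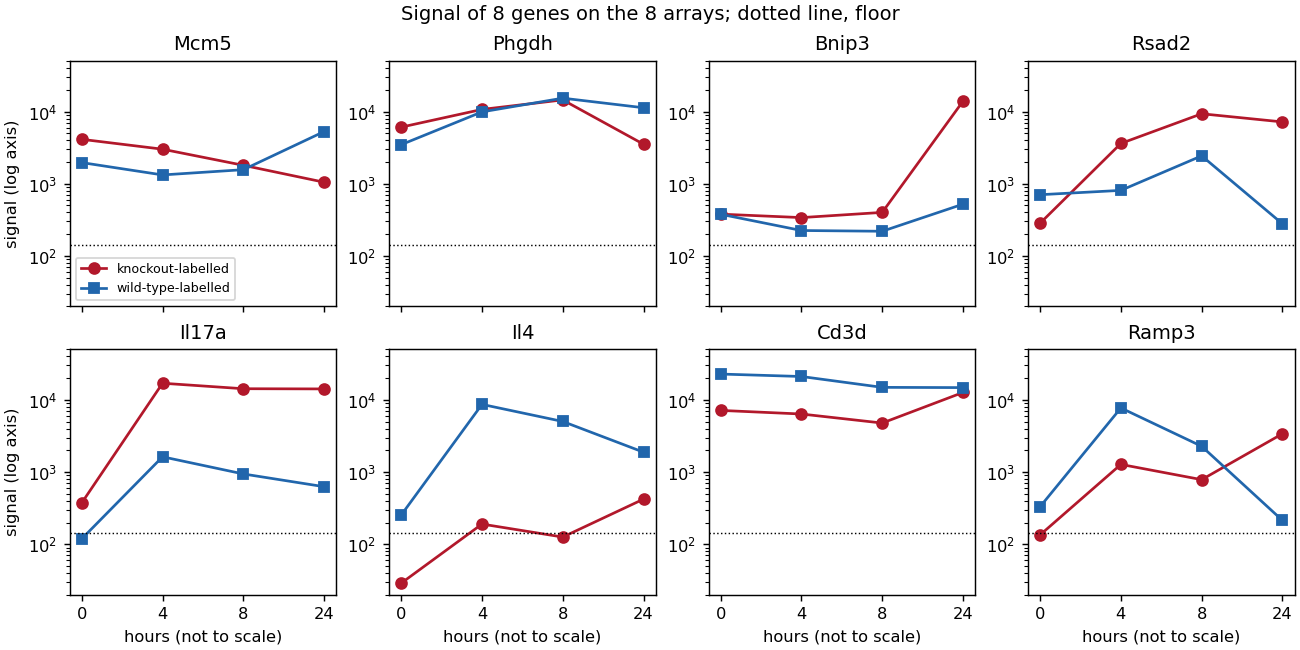
Signal of 8 genes (y axis, log scale) at 0, 4, 8 and 24 h (x axis, not to scale), red circles for the knockout-labelled and blue squares for the wild-type-labelled arrays, 1 array a point. The dotted line is the floor of 141.88. The lines of Mcm5 cross between 8 and 24 h, Bnip3 and Phgdh separate between those times, and those of Il17a and Il4 stay apart at 4, 8 and 24 h.

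Interferon response genes were higher at 24 h. Of 24 tested, 19 were at least 2-fold higher, none was lower and all 24 had a difference above 0 (median 1.5), beside 48.5% of all genes above 0 by any amount. Rsad2 (viperin), an antiviral enzyme, gave 7184 against 278, 25.8-fold apart. The antiviral Ifit1 gave 1268 against 278, the deconjugating enzyme Usp18 2724 against 694 and Irf7, the factor that amplifies the response, 1564 against 421. Against wild-type-labelled signals at the floor, Oasl1 was at least 10.2-fold and Mx1 at least 6.52-fold higher. Irf1 (0.37) and Ifit3 (0.64) differed less. From 8 to 24 h its wild-type-labelled signals changed by a median of -1.92 and its knockout-labelled ones by -1.48. The list's median difference had been -0.97, 0.26 and 1.27 at 0, 4 and 8 h. The interferon-inducible GTPases, which respond strongly to interferon gamma, differed less, with 2 of 9 past 2-fold and a median of 0.54. Iigp1 gave 12773 against 6251, Igtp 28077 against 17898 and Ifi47 7592 against 10691. Ifng itself gave 28817 against 15366. Genes of peptide supply for MHC class I had a median of 0.20 (-0.08 after division by array medians) and none past 2-fold. MHC class II genes had 0.05 (-0.17 on that scale), with the protease Ctss, which myeloid cells carry, at 10637 against 2689.7 and H2-DMa at 683 against 1405.

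The promoters of Rsad2 and Ifit1 are shown for the interferon genes, with matches to the letters GAAANNGAAA, the repeat that interferon-regulated factors bind, on either strand in capitals. Rsad2 has 1 match at -120 (window chr12:26456403-26456702, minus strand) and Ifit1 has 2, the first at -104 (window chr19:34640639-34640938, plus strand), from RefSeq on GRCm38.p6.
Rsad2: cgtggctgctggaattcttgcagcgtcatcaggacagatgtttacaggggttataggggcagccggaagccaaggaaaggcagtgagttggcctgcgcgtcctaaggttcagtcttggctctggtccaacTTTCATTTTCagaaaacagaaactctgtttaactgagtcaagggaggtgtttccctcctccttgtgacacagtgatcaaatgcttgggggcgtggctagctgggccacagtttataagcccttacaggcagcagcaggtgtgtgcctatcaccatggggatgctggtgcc
Ifit1: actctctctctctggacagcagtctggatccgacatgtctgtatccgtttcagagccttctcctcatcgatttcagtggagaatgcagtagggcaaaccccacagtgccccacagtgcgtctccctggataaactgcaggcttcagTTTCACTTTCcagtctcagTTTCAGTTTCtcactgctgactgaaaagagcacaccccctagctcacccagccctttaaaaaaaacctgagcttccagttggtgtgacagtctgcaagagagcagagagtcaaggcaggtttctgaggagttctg
Such letters were found in 10 of 23 promoters of 17 tested interferon response genes and in 6 of 8 promoters of 7 GTPase genes, against 1131 of 32851 in the table (3.44%) and 295 of 8922 of the tested genes (3.31%). By genes they were found for 51 of 612 higher genes (8.33%), 14 of 360 lower genes (3.89%) and 282 of 6920 tested ones (4.08%). The letters AATCAC, the core that Gfi1 binds, were found for 67 of 612 higher, 50 of 360 lower and 690 of 6920 tested genes (9.97%).

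**Figure D4:**
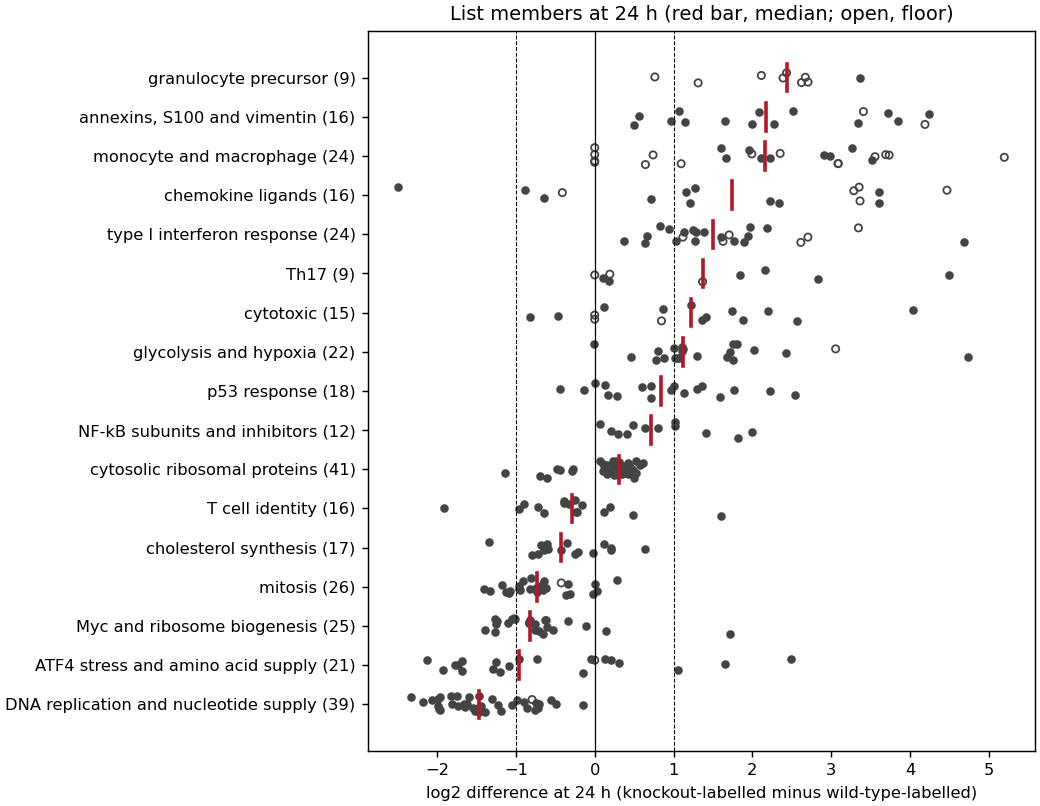
Log2 difference at 24 h (x axis, knockout-labelled minus wild-type-labelled) of each tested member of 17 gene lists (rows, number tested in brackets). Red bars are list medians, open circles are members with a signal at the floor on 1 or both arrays, and dashed lines mark 2-fold. All replication genes lie left of 0 and all interferon response and annexin, S100 and vimentin members right of it.

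Among cytokines, Il17a and Il4 kept opposite directions at 24 h. The Th17 cytokine Il17a gave 14177 against 627 and the Th2 cytokine Il4 422 against 1884. Other Th17 genes were on the side of Il17a: the nuclear receptor Rora gave 1617 against 226, the cytokine Il21 2331 against 523 and the chemokine receptor Ccr6 705 against 197, and Il1r1 was at least 2.58-fold higher (366 against 20.1). In all 5 of 9 members were higher and 0 lower (median 1.37), beside 9.18% and 5.06% of all genes. The other Th2 cytokines were not lower with Il4. Il13 gave 995 against 624 and Il9 213 against 207, while Il10 (1301 against 382) and Il3 (3134 against 465) were higher, and the lineage factor Gata3 differed by -0.13. The Th2 list's median of 0.04 became -0.24, -0.22 and -0.04 under the other scalings. Of 12 Th1 genes 4 were higher (median 0.61), led by Hopx (8394 against 1618) and the interleukin 12 and 18 receptor chains Il12rb2 (1464 against 318) and Il18r1 (1067 against 292). The Th1 master regulator Tbx21 differed by -0.15 and Tnf by -0.28. Il2 gave 3926 against 7257 (-0.89), its receptor chains Il2ra and Il2rb differed by 0.64 and 0.53, and Socs3, the feedback inhibitor of STAT3 signalling, gave 6833 against 1897.

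Many genes listed for cytotoxic and regulatory T cells were higher as well, where 9.18% of all genes were at least 2-fold higher. Which cells gave these signals was not tested. Of 15 cytotoxic genes 8 were at least 2-fold higher and 0 lower (median 1.22, or 0.94, 0.85 and 0.92 after division by array medians, quantile normalization and loess). The lectin receptors Klrc1, Klrk1 and Klrd1 gave 4362 against 266, 1964 against 332 and 3664 against 796, the pore former Prf1 1674 against 454, the death ligand Fasl 2045 against 612 and granzyme B (Gzmb) 54298 against 23388. Eomes, a factor of memory CD8 cells, differed by -0.47 and granzyme A by 0.12. Of natural killer cell markers (5 tested, 1 higher), Klra7 was at the floor on both arrays and Fcgr3, shared with monocytes, was the 1 past 2-fold. Of 14 regulatory T cell genes 7 were higher and 2 lower (median 1.11, or 0.88 and 0.90 after division by array medians and quantile normalization). The inhibitory receptor Ctla4 gave 9493 against 2114 and Ikzf4 629.7 against 222, and the lineage factor Foxp3 was at least 2.57-fold higher (365 against 135). Capg gave 6202 against 1506 (2.04) and had stood at 1.51 and 1.80 at 4 and 8 h. Izumo1r (845 against 2233) and Gpr83 (169 against 442) were lower. Havcr2 (Tim-3) gave 1181 against 214 and Entpd1 (CD39) 526 against 142, both also carried by myeloid cells. Pdcd1 and Lag3 differed by 0.33 and 0.06, and Cd200 was lower (2104 against 4690.1).

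Genes that mark T cells as such were mostly within 2-fold on the 24 h arrays, and more of them lay below 0 than above it. Of 16 T cell identity genes 1, the adaptor Trat1 (168 against 629.7), was at least 2-fold lower and 1, the surface glycoprotein Thy1 (10530.3 against 3476), higher, with a median of -0.29 beside -1.53, -1.51 and -1.42 at 0, 4 and 8 h. After division by array medians the 24 h median was -0.56. Of the 16 genes 12 lay below 0 and 4 above, among the former the lineage factor Bcl11b (952 against 1851, -0.96). The summed signal of the list was 74594 against 85696. Between 8 and 24 h its median change was 1.28 on the knockout side and 0.01 on the wild-type side. The kinase Zap70 stood at -0.25 and the adaptor Lat at -0.90. Cd8a gave 6781 against 7649.6, Cd8b1 4571 against 4493 and Cd4 859.6 against 1432. The other Cd4 probe set gave 598.9 against 593.2 (0.01). Naive T cell genes had a median of 0.10 (-0.18 after division by array medians), and Ccr7, the homing receptor to lymph nodes, and Il7r, the survival receptor, were higher at 32252 against 12552 and 3479 against 1522. The naive factor Lef1 differed by -0.82 and Klf2 by -0.59, and Als2cl was at least 3.20-fold lower (134 against 454). Cytosolic ribosomal proteins (41 tested) had a median of 0.31, with Rpl12 at least 2-fold lower, and the median became 0.04, -0.14 and -0.02 under the other scalings.

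Of the transcription factors of activation, NF-kB genes were on the higher side. The 18 genes of the Egr, Nr4a and AP-1 list were split, with 9 above 0 and 8 below. Past 2-fold in that list were Fos, Junb and Fosl2, which were higher, and Egr2, which was lower. All 12 NF-kB genes had a difference above 0 (median 0.72), where 48.5% of all genes did. Past 2-fold were 5 of them, beside 9.18% of all genes. The 5 were the adaptor Traf1 (4787 against 1198), the inhibitor Tnfaip3 (4728 against 1336), Nfkbiz (3805 against 1434), Bcl3 (1.02) and Rel (1.02). Fos gave 2392 against 838, Junb 5623 against 2244 and Fosl2 489 against 145. Egr2, which calcium signals from the receptor induce, gave 1133 against 4394 and Egr1 2133 against 4230.4, while Nr4a1 differed by 0.20. The median of the Egr, Nr4a and AP-1 list was 0.06, or -0.13 after division by array medians and -0.06 after quantile normalization.

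Chemokines and the annexin, S100 and vimentin group were higher, together with the monocyte markers given above. Of 16 chemokines 11 were at least 2-fold higher and 1 lower (median 1.74), beside 9.18% and 5.06% of all genes. The monocyte attractants Ccl2 (3140.2 against 4.5) and Ccl12 (1450.1 against 5.8) were at least 22.1-fold and 10.2-fold higher. Ccl9 gave 6901 against 567, the T cell chemokine Ccl5 4370.1 against 360.4, the interferon-induced Cxcl9 and Cxcl10 5491 against 1087 and 4216 against 905, and Ccl3 21761 against 9048. Ccl22, made by dendritic cells and activated T cells, was the lower one, at 156 against 879. All 16 annexin, S100 and vimentin genes were above 0 and 13 past 2-fold (median 2.18), with the filament protein Vim at 42606 against 3234, the galectin Lgals1 at 45812 against 4523, Anxa2 at 17138 against 909 and S100a6 at 3584 against 249.9. Genes of differentiated macrophages had 8 of 13 past 2-fold (median 1.45). The 13 are those of 21 on the array that were above the floor on at least 2 of the 8 arrays. Gpnmb, Mmp12, Mmp13, Mmp19, Arg1, Ctsk, Fabp4 and Pparg were not. A gene can pass that filter through knockout-labelled arrays alone, so the count leans to genes with signal there. The lipase Lpl gave 2119 against 182, the haem oxygenase Hmox1 2605 against 248 and the protease Ctsl 5679.9 against 679.7, while Apoe was at the floor on both arrays.

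Lymphoid and erythroid markers from outside the T lineage moved less evenly. Of 12 B cell markers 3 were higher and 2 lower (median 0.00), with the antigens Ms4a1 at 156 against 439 and Cd79a, Cd22 and Fcer2a at the floor on both arrays. Among 9 plasma cell genes 4 were higher, 3 lay below 0 within 2-fold and 2 were at the floor on both arrays (median 0.00). The joining chain Jchain gave 3149 against 269.8, the mu chain Ighm 23011 against 6306 and the plasma cell factor Prdm1, which effector T cells also use, 1230.5 against 249, while the secretory factor Xbp1 gave 9839.5 against 10737 and Sdc1 and Tnfrsf17 were the 2 at the floor. Red cell genes (7 tested) had a median of -0.56, and Car1, the carbonic anhydrase of red cell precursors, was lower at 193 against 1681. Dendritic cell genes (9 tested) had -0.14 and platelet genes (4 tested) 0.36, or -0.03 for platelets after division by array medians and -0.02 after quantile normalization. Pf4 gave 963 against 1004.

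The genes with the largest differences among those measured on both arrays came from several of these groups. The 12 highest were Acod1, the itaconate-making enzyme of activated macrophages (5913 against 215, 4.78), the lysosomal transporter Slc15a3 (4.76), Bnip3, Rsad2, the uridine phosphorylase Upp1 (4.60), Il17a (4.50), Anxa2, Il1r2, the prostaglandin synthase Ptgs2 (5907 against 324, 4.19), the tubulin Tubb6 (4.15), Klrc1 and Ramp3. Ramp3, a partner of the calcitonin-like receptor, gave 3395 against 214 at 24 h but 1276 against 7729 at 4 h. After Car1 (-3.13), the lowest were the DNA repair enzymes Ung (286 against 2183, -2.93) and Exo1 (154 against 1006, -2.71). They were followed by the cysteine-making enzyme Cth (-2.69), Ccl22, Tmem131l (-2.43), the transporter Slc7a3 (-2.43), Lrmp (-2.36), Mcm5, the fork protection protein Timeless (-2.31), Tk1 and Il4 (-2.16).

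A second set had 1 side at the floor. On the higher side the transglutaminase Tgm2 gave 7101 against 102 (at least 50.1-fold), the lectin Clec4n 3541 against 114, Sgip1 3454 against 6.6, the chemokine receptor Ccr1 3389.9 against 92.1, Anxa1 2588 against 97.5 and the lamin gene Lmna 2531 against 88.0, beside Cd14 and Ccl2. The lower ones were fainter and closer together. The bounds were 4.12-fold for Nacc1, and for Akr1c18 3.69-fold, Lipt2 3.42-fold, Mfsd3 3.37-fold, Chst2 3.20-fold, Ankrd28 2.92-fold and Smim27 2.81-fold.

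Many of the 24 h differences were not seen on the earlier arrays. At 0, 4 and 8 h 8.08%, 11.8% and 10.7% of all genes were at least 2-fold higher and 6.75%, 6.56% and 6.66% at least 2-fold lower. Of the 776 higher genes 157 were also at least 2-fold higher at each of 0, 4 and 8 h, and 354 at none of them. Of the 428 lower genes 14 were also lower at all 3 and 310 at none. Opposite calls at 8 h were seen for 36 of the higher and 50 of the lower genes. Across genes the 24 h difference correlated with the 0, 4 and 8 h differences at r = 0.10, 0.32 and 0.42 (8457 genes, which are not independent and share the 2 sources of cells). Under 1.5-fold at each earlier time were 114 of the higher and 81 of the lower genes. Among those on the higher side were Basp1 (5662 against 793), Serpinb6a (982 against 236), Adh4 (975 against 246), the costimulatory ligand Tnfsf4 (OX40 ligand, 2706 against 715), Il18r1 and the acid-sensing receptor Gpr65 (9601 against 2729.6). On the lower side were Bola1 (283 against 1056), the polymerase delta subunit Pold2 (945 against 3366), the acetyltransferase Kat2a (392 against 1375), the glutathione-degrading Chac1 (242 against 827), Psph and the repressor E2f6 (409.9 against 1271). Relative to their own array at 8 h, 249 of the higher genes (32.1%) were at least 2-fold up in the knockout-labelled arrays and 165 (21.3%) at least 2-fold down in the wild-type-labelled ones. Of the lower genes 97 (22.7%) were up under the wild-type label and 113 (26.4%) down under the knockout label, while 232 (54.2%) were within 2-fold in both. Over all tested genes 522 (6.17%) and 619 (7.32%) were up and down under the knockout label, and 429 (5.07%) and 566 (6.69%) under the wild-type label. These shares use the 24 h signals that also make the difference, so they describe it and do not test it.

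Separate probe sets of a gene gave a check within the arrays, though not between samples. Of 275 higher genes with another tested probe set, all other probe sets had the same direction in 246, and at least 1 was itself past 2-fold in 174. Of 171 lower genes the numbers were 150 and 91. An opposite difference past 2-fold was seen in 0 of the higher and 2 of the lower genes. Rsad2 had 2 other probe sets and Tgm2 had 4, all past 2-fold in the same direction. Other genes named here were borne out less well by theirs. For Csf1r, at 3.73, the others gave 1.33 and 0.42, for Kat2a, at -1.81, they gave -0.69 and -0.12, and for Nacc1, at -2.04, -0.69 and -0.20. For Cdc20, at -1.12, they gave -0.42 and 0.00, the last at the floor on both arrays. By the median over probe sets Bid, Bub1, Cdc20, Iigp1, Kat2a, Ms4a1, Nacc1 and Wdr12 were within 2-fold.

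In the list of Gfi1, its partners and its proposed targets, 11 of 28 were at least 2-fold higher and 3 lower (median 0.28). Gfi1 itself, at 1.32, counts among the higher ones, though its probes are not placed against the disrupted part of the gene. Over all genes the shares were 9.18% and 5.06%. Of the 28, 16 lay above 0 and 11 below, and 6 had a wild-type-labelled signal at the floor. The partners Kdm1a, Rcor1, Hdac1 and Hdac2 differed by -0.13, 0.07, 0.08 and -0.58. Among the proposed targets, the inhibitor of E proteins Id2 gave 13177 against 3483, Cdkn1a 14590.5 against 3113, Socs3 6833 against 1897 and Il7r 3479 against 1522. The related Id3 was lower (298 against 598), as were Egr2 and E2f6. The myeloid targets Csf1r, Spi1, Cebpa, Hoxa9 and Elane were higher together with the monocyte and granulocyte markers.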

How the data were processed

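The deposited table holds signal intensity for 22690 probe sets on 8 Affymetrix MOE430A_2.0 arrays; the submitters' processing notes name GCOS 1.4 and MAS5, and the arrays have 2% trimmed means of 1000.4 to 1000.5. No per-sample column was left out, and 64 control probe sets were set aside. Each array's 40th percentile was taken, and the median of these 8 values, 141.88 (log2 7.15), was the floor, applied before log2. Probe sets above it on at least 2 of 8 arrays were kept, 15062 in all. Of the probe sets 20380 had 1 gene symbol, 691 several and 1555 none here; 0 symbols were updated through the reference table, and 20351 probe sets had an identifier in it. A gene's value is that of its brightest probe set by mean log2 signal, and at least 2-fold was called.

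No test between samples is possible with 1 array a side, and their number limits the precision. The steps were tested on simulated data. The 42 lists hold 735 genes, 629 of them tested. Named genes were the 12 largest differences a side with both signals above the floor, 8 a side with 1 at the floor by the brightness of the other, 4 a list with those opposite at 8 h, 11 single genes, and 6 a side under 1.5-fold at the earlier times; other list members are named as examples, chosen after their values were seen. The comparison, lists and rules were chosen with earlier results of these data known. Motifs were searched on both strands. The 12 alternatives were other scalings, floors, filters, thresholds, summaries and references. Software was python 3.11.15, numpy 2.4.6, pandas 2.3.3, statsmodels 0.14.6 and matplotlib 3.10.9.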

Additional observations from a re-analysis of the deposited data

Results flagged for a closer look

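Some genes named by the rules were at least 2-fold apart one way at 24 h and at least 2-fold apart the other way at 8 h. Each side is 1 array a time, so the difference between times was not tested. The log2 differences at 24 h, knockout-labelled minus wild-type-labelled, follow.

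Below 0 at 24 h and above 0 at 8 h were the replication genes Tk1 -2.18, Gins1 -2.06, Mcm10 -1.99, Cdc6 -1.74, Orc1 -1.65, Pola1 -1.46, Prim2 -1.45, Rfc4 -1.75, Fen1 -1.65, Rrm1 -1.52, Uhrf1 -1.81 and Chaf1b -1.22. The mitosis and cyclin genes Cdk1 -1.4, Ndc80 -1.33, Top2a -1.18, Cdc20 -1.12, Bub1 -1.09, Nuf2 -1.07 and Ccne2 -1.4 did the same, and so did Asns -1.29. At 8 h Bub1 had stood at 3.16, Cdk1 at 2.29 and Cdc6 at 2.21.

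Above 0 at 24 h and below 0 at 8 h were Ramp3 3.99, Ccr7 1.36, Il7r 1.19, Nt5e 1.35 and Fasl 1.74, the p53 response genes Trp53inp1 1.14, Btg2 1.29 and Plk2 1.36, and Fos 1.51, Nfkbiz 1.41 and Acp5 1.16. Fasl had stood at -1.97, Ccr7 at -1.62 and Ramp3 at -1.54 at 8 h. The wild-type-labelled Nt5e signal at 24 h was at the floor, so its value there is a lower bound.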

How the results depend on the processing

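The counts at 24 h moved with the scale and the threshold, by their construction for the floor, the fold and the shift. Dividing each array by its median gave 897 lower genes and 1599 lower probe sets. A floor at the 20th percentile gave 1799 higher and 739 lower genes (2955 and 1349 probe sets), and one at the 60th percentile 374 higher genes, 597 higher and 462 lower probe sets. Adding the floor value before log2 gave 272 lower genes and 453 lower probe sets. At 1.5-fold there were 1547 and 1270 genes (2645 and 2253 probe sets), at 4-fold 210 and 21 (317 and 36), and relative to the T cell identity median 1249 and 171 (2089 and 293). Quantile normalization gave 669 and 467 genes, removal of a loess trend 791 and 366, no filter 790 and 430, a filter to probe sets above the floor on both arrays, with each gene's probe set chosen again among them (6972 genes), 553 and 404, and the median over probe sets 719 and 389, all within 1.5 times of 776 and 428. No named gene or list median past 2-fold took the opposite sign under these. With the floor at the 60th percentile, 32 named genes past 2-fold were within it and 166 kept their call. Among the 32, Als2cl, Ankrd28, Cd72, Dhcr7, Lcn2, Ms4a1 and Nt5e were at that floor on both arrays, with no difference. Over all settings the value nearest 0 was -0.10 for Ndc80, -0.40 for Trat1, -0.41 for Nuf2, -0.54 for Bub1 and -0.60 for Tk1. After division by array medians the list medians of glycolysis and hypoxia (0.84), cytotoxic (0.94) and regulatory T cell genes (0.88) were within 2-fold, and those of mitosis (-1.01), Myc and ribosome biogenesis (-1.10) and ATF4 (-1.24) past it. With the floor at the 60th percentile the regulatory T cell (0.22), granulocyte precursor (0.68) and eosinophil, basophil and mast cell (0.77) medians were within it and the plasma cell median (1.21) past it. No paired analysis was possible because each genotype has 1 array at 24 h. Signals near the floor limit the myeloid lists, whose wild-type-labelled values are mostly under it, and leaving out a replicate was not possible.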

Other observations

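The groups below were chosen after their values were seen, so their directions were fixed by that choice and bear on no list. Ung, Exo1 and Timeless, given above, are among the repair genes. Of 25 DNA repair and checkpoint genes 17 were lower under the knockout label by 2-fold or more and all 25 were below 0 (median -1.32, against 0.59, 0.60 and -0.14 at 0, 4 and 8 h). The chromatin remodeller Hells gave 977 against 3927, the checkpoint kinase Chek1 514 against 1706, the licensing inhibitor Gmnn 1166 against 3353 and the kinase Atm 646 against 1681. Aminoacyl-tRNA synthetases, which charge transfer RNA, were below 0 in 17 of 18 cases and at least 2-fold lower in 6 (median -0.86). Vars gave 672 against 2070.1 and Eprs 1816 against 4726, while Qars differed by 0.11.

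Of 13 further genes known to respond to hypoxia, 11 were at least 2-fold higher and all 13 above 0 (median 2.29, against 0.00, -0.25 and -0.26 at 0, 4 and 8 h). Ndrg1 gave 6363 against 583, the Myc antagonist Mxi1 2543 against 362, the lipid droplet protein Hilpda 5286 against 1081, the adenylate kinase Ak4 1992 against 369.7 and the collagen-modifying Plod2 1651 against 232. Ddit4 stands in this group and in the amino acid list. The oxygen tension, cell density and medium of the cultures are not given in the sources used here.

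Of 17 immunoglobulin genes 9 were at least 2-fold higher and none lower (median 1.10, beside 0.00 for both the plasma cell and the B cell list), such as Iglv1 at 2907 against 346 and Igkv8-30 at 6059 against 1002. Members of this family share sequence, so their probe sets may not be separate measurements. Of the 20 tested genes nearest to Gfi1 on its chromosome, 10 on each side in RefSeq order, 1 (Glmn, 332 against 850.1) was past 2-fold at 24 h, and the median difference was -0.05.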
